A study of Mus musculus with 8 samples.

Results

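In all, 10 genes of the response to low oxygen were followed in hepatocyte RNA from mice with and without the cannabinoid 1 receptor gene *Cnr1* in hepatocytes: *Ndufa4l2*, *Slc16a3*, *Hif1a*, *Vegfa*, *Egln3*, *Bnip3*, *Ankrd37*, *Ddit4*, *Slc2a1* and *Car9*. *Ndufa4l2* and *Slc16a3* were chosen for their large falls in hCNR1-/- hepatocytes on these same arrays, so their values are described without a test. The other 8 were added as known targets or parts of the pathway, with earlier results of these data known. Every gene list below was also chosen with such results known, so counts over these lists are descriptions. All 10 were among the 21368 genes named on the array, and 9 of the 10 were among the 11072 genes that could be tested. *Car9*, a cell surface carbonic anhydrase, had 1 probe, which the scanner flagged as well above background on 0 of 8 arrays, so it has no fold change here.

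The arrays held Cy3-labelled RNA from isolated hepatocytes of 4 hCNR1+/+ mice (genotype label hCNR1_WT, strain label CNRO) and 4 hCNR1-/- mice (hCNR1_cKO, CNRO Alb-Cre), 1 array per mouse. All mice were male, 12 to 14 weeks old, and fed a standard diet. The hCNR1-/- mice came from crosses of albumin-Cre mice with mice carrying CNR1flox/flox alleles, and the hCNR1+/+ controls were littermates. Albumin-Cre acts in hepatocytes, and whether all other liver cells kept the gene was not examined here. Since the strain labels name Alb-Cre only for hCNR1-/-, presence of Cre and loss of *Cnr1* cannot be told apart. *Cnr1* itself had 1 probe, which was flagged as well above background on none of the 8 arrays (0 of 4 in each genotype), and the genotypes were therefore taken from the labels alone.

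Values below are log2 signals relative to the 75th percentile of all non-control spots of the same array. That percentile ran from 29.3 intensity units in hCNR1-/- replicate 4 to 139 in hCNR1+/+ replicate 2, and was 62.0 in hCNR1+/+ replicate 4, the lowest of its group. Between 28.6% and 42.3% of spots were well above background. All arrays lay on 1 slide, with hCNR1+/+ in row 1 and hCNR1-/- in row 2, and the effects of row and of genotype cannot be told apart.

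Cells sense oxygen through the hypoxia-inducible factors (HIF), dimers of an oxygen-labile alpha subunit such as HIF-1α, encoded by *Hif1a*, and a stable partner, ARNT. Prolyl hydroxylases, among them the *Egln3* product PHD3, use oxygen to mark the alpha subunit for the VHL ubiquitin ligase, and when oxygen falls the subunit escapes, enters the nucleus and binds short DNA elements with the core letters ACGTG or GCGTG. Its targets move cells from respiration towards glycolysis. In liver, oxygen falls along the lobule from the portal side to the central vein, and glycolytic enzymes are more abundant near the central vein. The arrays measured mRNA only, not HIF protein.

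Promoter windows are shown for *Ddit4*, *Bnip3* and *Slc2a1*, the members other than the chosen pair that passed the fold threshold used below, and for *Slc16a3*, which had the largest difference. They are RefSeq sequences of assembly GRCm38.p6, 250 bases up to an annotated start of transcription and 5′ to 3′ on the gene's strand. Capitals mark ACGTG or GCGTG on either strand, so CACGT and CACGC are marked too, and the palindrome CACGTG counts once on each strand. The *Ddit4* window lies at chr10:59951771-59952020 on the minus strand, that of *Bnip3* at chr7:138909507-138909756 on the minus strand and that of *Slc2a1* at chr4:119108495-119108744 on the plus strand. Of the *Slc16a3* window only the last 30 bases are given, chr11:120949037-120949066 on the plus strand, which hold both of its matches. That window lies inside the annotated span of the gene, which begins at chr11:120948484.
Ddit4: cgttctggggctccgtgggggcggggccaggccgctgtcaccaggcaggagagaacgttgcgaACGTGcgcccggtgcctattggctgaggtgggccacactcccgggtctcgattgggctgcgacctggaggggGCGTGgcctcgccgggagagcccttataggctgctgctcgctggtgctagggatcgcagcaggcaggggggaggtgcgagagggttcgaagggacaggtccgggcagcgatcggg
Bnip3: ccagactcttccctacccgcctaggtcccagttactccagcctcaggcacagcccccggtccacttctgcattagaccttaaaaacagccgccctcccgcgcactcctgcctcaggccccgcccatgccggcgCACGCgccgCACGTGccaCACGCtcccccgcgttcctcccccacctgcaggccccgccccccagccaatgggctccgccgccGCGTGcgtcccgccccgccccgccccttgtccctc
Slc2a1: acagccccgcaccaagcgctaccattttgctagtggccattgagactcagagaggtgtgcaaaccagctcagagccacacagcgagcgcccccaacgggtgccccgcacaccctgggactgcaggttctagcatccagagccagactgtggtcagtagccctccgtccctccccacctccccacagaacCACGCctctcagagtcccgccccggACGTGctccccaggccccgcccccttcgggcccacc
Slc16a3: gtgACGTGcgcgggggACGTGccgcgcgac

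The table of promoter windows matched 9 of the 10 members, with *Ndufa4l2* the one not matched. All 9 had ACGTG on either strand in at least 1 window. For *Vegfa* the window just before the gene, chr17:46032378-46032627, held neither ACGTG nor GCGTG. Its matches lay only in another window, chr17:46025164-46025413, within the gene. Of all 32851 windows of 250 bases, 16.6% held ACGTG, and of the 8892 tested genes with a window 25.0% held it in any window. With GCGTG included, the share was 38.6% of all windows and 60.4% of these tested genes. The windows of *Slc16a3*, *Hif1a* and *Ankrd37* also lay within the annotated span of their genes. Their starts are therefore not the outermost ends of those genes. In *Slc16a3* the matches began 27 and 14 bases before the start that ends its window, and in *Slc2a1* an ACGTG began 36 bases before the start. *Bnip3* held the palindrome CACGTG, which began 108 bases before the start and lay between CACGC matches. The 8 matched members other than *Slc16a3* had been added as HIF targets or parts of the pathway, so this count is a description of such genes and not a measurement of binding.

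*Ndufa4l2* encodes a mitochondrial protein related to the cytochrome oxidase subunit NDUFA4 and is induced by HIF-1. The hCNR1+/+ arrays had log2 signals of 3.69, 3.52, 4.47 and 4.81 and the hCNR1-/- arrays 2.45, 2.34, 1.06 and 1.73, with arrays given in the order of their replicate numbers here and below. Every hCNR1-/- array lay below every hCNR1+/+ array. The hCNR1+/+ mean of 4.12 ± 0.62 (SD, n = 4) compared with 1.89 ± 0.64 (SD, n = 4) for hCNR1-/-, a log2 difference of -2.23 with an SE of 0.39, or 4.69-fold lower. These are the values on which the gene was chosen. In an RNA sample of many cells, fewer cells with a transcript and less of it per cell cannot be told apart, and this holds for every gene below.

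*Slc16a3* encodes MCT4, the transporter that carries lactate out of glycolytic cells. Its brightest probe, A_55_P2067505, read 2.07, 3.01, 3.85 and 5.24 in hCNR1+/+ and 0.26, 1.30, -0.27 and 0.75 in hCNR1-/-. The groups did not overlap, and the 4 hCNR1+/+ arrays were spread over more than 3 log2 units. The log2 difference was -3.03 with an SE of 0.62, or 8.18-fold lower, from a mean of 3.54 ± 1.35 (SD, n = 4) to 0.51 ± 0.67 (SD, n = 4). The other probe of the gene, A_55_P1959425, differed from it by -0.08 to 0.31 over the 8 arrays, and its own log2 difference between genotypes was -3.05. *Slc16a3* too was chosen on these values.

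**Figure D1:**
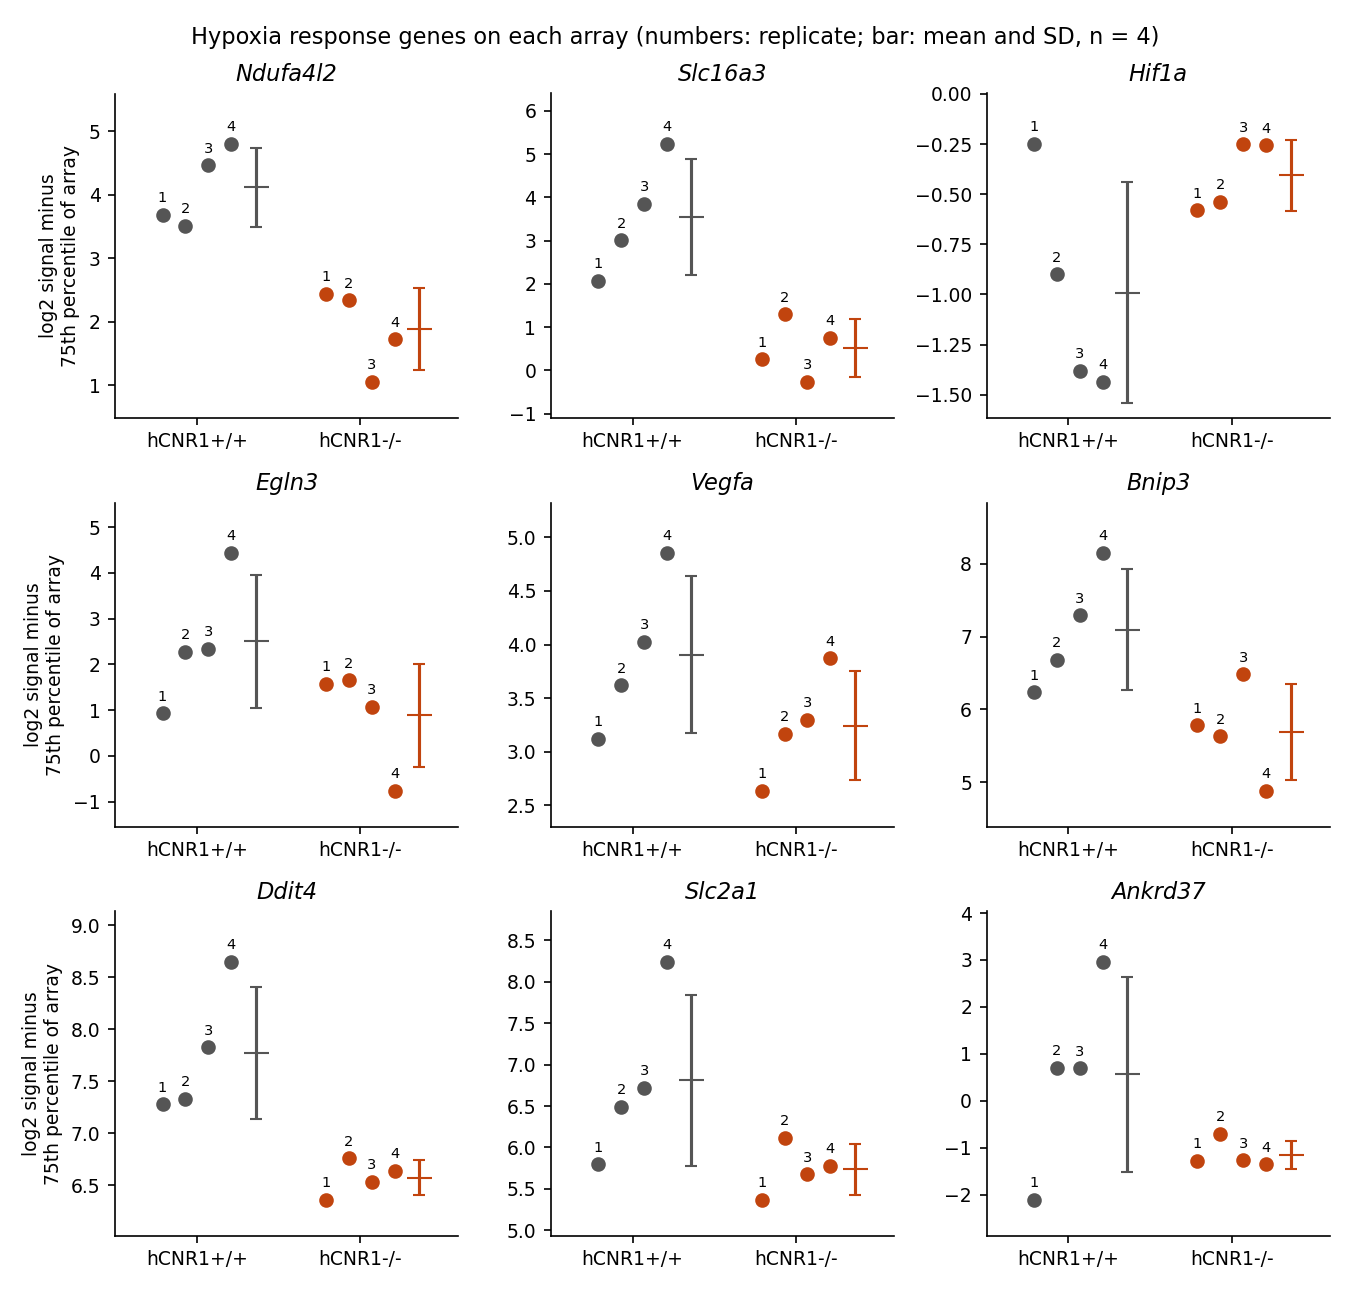
Log2 signal relative to the 75th percentile of the array for the 9 measurable hypoxia response genes, 1 point per array with its replicate number, and mean with SD (n = 4) beside each group. The groups are apart for Ndufa4l2, Slc16a3 and Ddit4, hCNR1+/+ replicate 4 is the highest hCNR1+/+ array in every panel except that of Hif1a, and each panel has its own axis.

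*Hif1a* and *Egln3* stand for the factor and its oxygen-dependent brake. *Hif1a* read -0.25, -0.90, -1.38 and -1.44 in hCNR1+/+ and -0.58, -0.54, -0.25 and -0.26 in hCNR1-/-, and it alone of the 9 had a higher mean in hCNR1-/-. The log2 difference was 0.58 with an SE of 0.28 and an adjusted p of 0.270 (limma, Benjamini-Hochberg over all 11072 genes, as for every adjusted p here). The groups overlapped, because hCNR1+/+ replicate 1 read as high as the highest hCNR1-/- array. Without any scaling of the arrays its difference was 0.03, while the median of all tested genes moved from 0.08 to -0.47. *Egln3* is itself a HIF target. It read 0.93, 2.28, 2.34 and 4.44 in hCNR1+/+ and 1.58, 1.65, 1.08 and -0.77 in hCNR1-/-. The replicate 4 arrays were the highest of one genotype and the lowest of the other, and the log2 difference of -1.62 had an SE of 0.75 and an adjusted p of 0.246.

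*Ddit4* and *Bnip3* act in growth control and mitochondrial turnover. *Ddit4* encodes REDD1, an inhibitor of the growth kinase complex mTORC1, and read 7.28, 7.33, 7.83 and 8.65 in hCNR1+/+ against 6.36, 6.76, 6.53 and 6.64 in hCNR1-/-. The groups did not overlap. Its log2 difference of -1.20 (SE 0.31, 2.30-fold lower) had an unadjusted p of 0.00348 and an adjusted p of 0.0619, above the threshold of 0.05. *Bnip3* encodes an outer mitochondrial membrane protein that promotes the removal of mitochondria. Its brightest probe read 6.24, 6.68, 7.29 and 8.15 in hCNR1+/+ against 5.78, 5.63, 6.48 and 4.88 in hCNR1-/-. The highest hCNR1-/- array thus lay above the lowest hCNR1+/+ array, and the log2 difference of -1.40 (SE 0.45, 2.63-fold lower) had an adjusted p of 0.113.

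*Slc2a1* encodes GLUT1, a glucose transporter that is sparse in healthy hepatocytes, whose main transporter is GLUT2. It read 5.80, 6.49, 6.72 and 8.24 in hCNR1+/+ and 5.37, 6.12, 5.68 and 5.78 in hCNR1-/-. Only hCNR1+/+ replicate 4 stood well clear of the hCNR1-/- arrays. The log2 difference was -1.08 with an SE of 0.46 (2.11-fold lower) and an adjusted p of 0.213. *Slc2a2*, which encodes GLUT2, differed by -0.16 (SE 0.51, adjusted p = 0.879).

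*Vegfa*, the main growth factor for blood vessels, read 3.12, 3.62, 4.03 and 4.86 in hCNR1+/+ and 2.64, 3.17, 3.30 and 3.87 in hCNR1-/-. The groups overlapped over much of their range, and the log2 difference of -0.66 had an SE of 0.39 and an adjusted p of 0.361. *Ankrd37*, an ankyrin repeat protein gene that HIF-1 induces, read -2.11, 0.71, 0.70 and 2.97 in hCNR1+/+ and -1.28, -0.70, -1.27 and -1.35 in hCNR1-/-, where replicate 4 was not well above background. The hCNR1+/+ arrays lay on either side of all hCNR1-/- arrays. Its log2 difference of -1.71 had an SE of 0.85 and an adjusted p of 0.278.

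Of these 7 members, 0 had an adjusted p below 0.05 in either direction, while 1.30% of all tested genes were called lower and 2.94% higher by that rule. The threshold the study used was a fold change above 2 with a p below 0.05, the p taken here as unadjusted. By it 3 of the 7 were lower (*Bnip3*, *Ddit4* and *Slc2a1*) and 0 were higher, against 3.75% and 4.78% of all tested genes. These shares come from the fit used here and not from the study, which reported more genes lower than higher at this threshold. The groups did not overlap for 1 of the 7 on the low side and 0 on the high side, against 5.04% and 12.7% of all genes. The median log2 difference of the 7 was -1.20 and 6 of 7 were below 0, against a median of 0.08 and 43.4% of genes below 0 over all tested genes. With *Ndufa4l2* and *Slc16a3* put back, 3 of 9 members were apart on the low side, a count that the choice of that pair partly fixes.

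The size of these differences turned on hCNR1+/+ replicate 4. It was the highest hCNR1+/+ array for 8 of the 9 members, and for 45.5% of all tested genes. Without it the log2 difference was -0.60 for *Slc2a1*, -0.91 for *Ankrd37*, -0.97 for *Egln3* and -0.35 for *Vegfa*, against -1.08, -1.71, -1.62 and -0.66 with all arrays. *Bnip3* was -1.04, *Ddit4* -0.91, *Slc16a3* -2.47 and *Ndufa4l2* -1.999 without it, and 1 of the 7 (*Bnip3*) then passed the study's threshold. Without hCNR1+/+ replicate 1, which was the lowest hCNR1+/+ array for 7 of the 9 members, 5 of the 7 passed, the former 3 with *Egln3* and *Ankrd37*. The count was 2 without hCNR1+/+ replicate 3, hCNR1-/- replicate 1, hCNR1-/- replicate 3 or hCNR1-/- replicate 4, *Slc2a1* being the gene that no longer passed. Without hCNR1-/- replicate 4 *Ddit4* had an adjusted p of 0.0490, and the *Egln3* difference was -1.07. The sign of each of the 9 differences was the same whichever array was left out. hCNR1+/+ replicate 4 also had the lowest 75th percentile of its group, and the part of signal strength in these values was not tested.

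**Figure D2:**
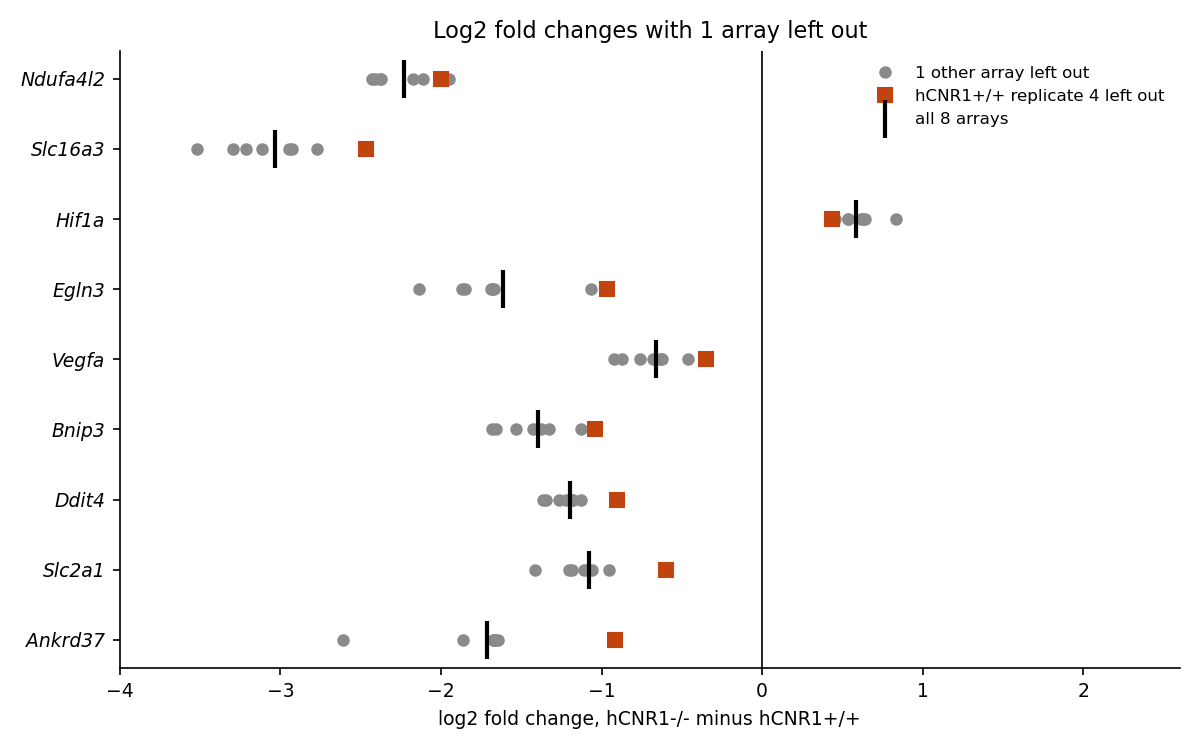
Log2 fold change of hCNR1-/- over hCNR1+/+ for each measurable member with all 8 arrays (bar), without hCNR1+/+ replicate 4 (orange square) and without each other array in turn (grey circles). Without hCNR1+/+ replicate 4 Slc2a1 is at -0.60 in place of -1.08, while no member crosses 0.

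For some members the probes of 1 gene parted on single arrays. *Bnip3* had 3 probes. On hCNR1+/+ replicate 4 probe A_55_P2091473 read 8.15 and probe A_55_P2091472 read 4.87, a gap of 3.29, while on the other 7 arrays they differed by -0.33 to 0.35. The third, A_66_P120736, read -0.82, -0.47, 0.35 and 1.29 in hCNR1+/+ and -1.59, -1.57, -0.96 and -2.56 in hCNR1-/-, with no overlap, and was measurable on 3 of the 4 hCNR1-/- arrays. On hCNR1+/+ replicate 4 it was thus the highest of its group, as A_55_P2091473 was, and A_55_P2091472 was the lowest. With A_55_P2091472, the second brightest, the *Bnip3* log2 difference was -0.71.

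*Vegfa* had 2 probes, which differed by 0.07 to 0.74 on 7 arrays and by 4.40 on hCNR1-/- replicate 4, where A_52_P249424 read 3.87 and A_52_P638895 read -0.53. The log2 difference was -0.66 with the former and -1.60 with the latter. The probes of *Egln3* (A_52_P387009 and A_55_P1960916) stayed within 0.05 to 0.88 of each other on every array, and the second gave a log2 difference of -1.19.

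**Figure D3:**
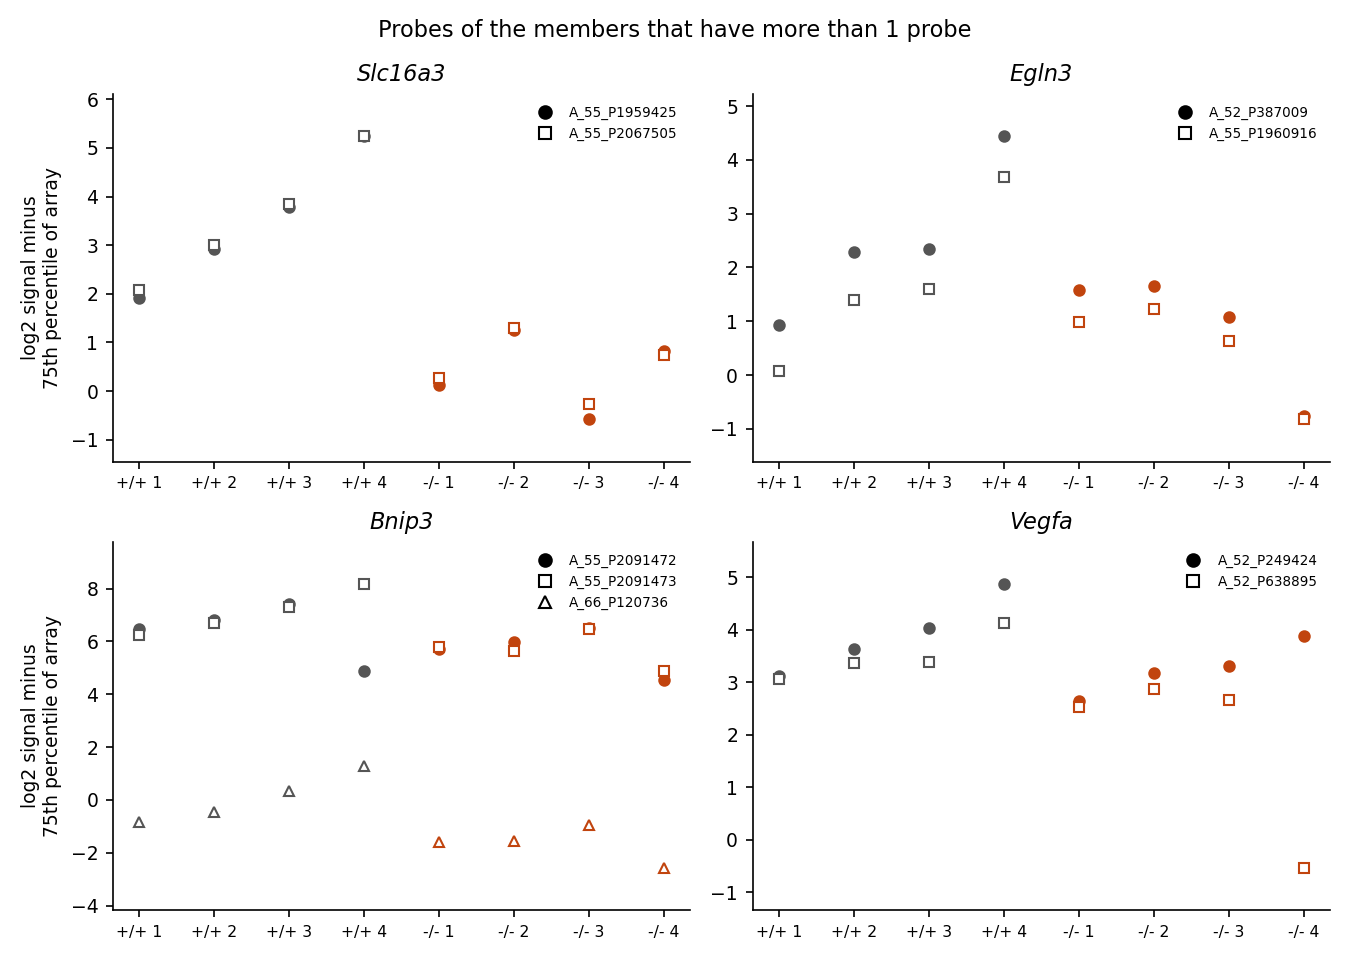
Log2 signal relative to the 75th percentile of the array for each probe of the members with more than 1 probe, by array (grey hCNR1+/+, orange hCNR1-/-, with a symbol for each probe). The Slc16a3 probes lie within 0.31 of each other, whereas 2 Bnip3 probes part by 3.29 on hCNR1+/+ replicate 4 and the Vegfa probes by 4.40 on hCNR1-/- replicate 4.

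A wider list of 78 genes of the HIF pathway, without the members, was read in the same fit. This list too was chosen with earlier results of these data known. Of these, 77 were on the array and 61 could be tested. By the study's threshold 12 of 61 were lower in hCNR1-/- and 0 were higher, against 3.75% and 4.78% of all tested genes. The median log2 difference of the 61 was -0.30 and 43 were below 0, against 0.08 and 43.4% over all tested genes. The groups were apart on the low side for 10 genes and on the high side for 1, *Elob*, against 5.04% and 12.7% of all tested genes. An adjusted p below 0.05 was reached by 2 genes, *Ndrg1* and *Ero1a*, both lower, against 1.30% of all tested genes called lower and 2.94% called higher. These counts include *Ero1a*, which could be tested only because it was measurable on the hCNR1+/+ arrays.

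*Ndrg1*, a stress-responsive gene of the N-myc downstream regulated family, read 4.60, 4.56, 5.35 and 6.27 in hCNR1+/+ and 3.56, 3.59, 3.74 and 3.09 in hCNR1-/-. The groups were apart, and the log2 difference was -1.70 (SE 0.38, adjusted p = 0.0406). *Ero1a*, an oxidase that forms disulfide bonds in the endoplasmic reticulum, read -1.22, -0.64, -0.57 and 1.84 against -2.30, -4.16, -2.43 and -2.81, and was measurable on 1 of the 4 hCNR1-/- arrays. Its log2 difference of -2.77 (SE 0.66, adjusted p = 0.0484) thus rests on hCNR1-/- values that were mostly not well above background, it was -0.84 with the normexp background correction, and the call supports nothing here. Leaving out any 1 array other than hCNR1-/- replicate 4 ended both calls, with adjusted p-values up to 0.125 for *Ndrg1* and 0.118 for *Ero1a* and both still lower. Without hCNR1+/+ replicate 4 the adjusted p was 0.0511 and 0.0539, the median of the 61 was -0.08, and 9 of them passed the study's threshold. Without hCNR1+/+ replicate 1, 16 passed it, and *Hk1* had an adjusted p of 0.0411. Without hCNR1-/- replicate 4, *Pdk1* and *Ppp1r3c* joined *Ndrg1* and *Ero1a* on the low side, and *Elob* was called higher (0.55, adjusted p = 0.0479). In that fit *Eloc* passed the study's threshold on the high side (1.07). By adjusted p 2.92% of all tested genes were then called lower and 10.1% higher.

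The genes of glycolysis and glycogen made up 7 of the 12. Of 18 tested in this group, 16 were below 0, with a median of -0.84, against 43.4% of all tested genes below 0. The study's threshold was passed by 7 on the low side and 0 on the high side, against 3.75% and 4.78% of all tested genes. An adjusted p below 0.05 was reached by 0. *Hk1*, a hexokinase that is not the main hepatocyte form, read -0.61, 0.29, 1.01 and 3.002 against -1.61, -1.16, -2.10 and -1.57. Its log2 difference was -2.53 (SE 0.65, adjusted p = 0.0605), but with its second brightest probe it was 0.06. That probe was dim, with means of -1.79 in hCNR1+/+ and -1.72 in hCNR1-/-. It was well above background on 3 of the 4 arrays of each genotype. *Pfkp*, the platelet form of phosphofructokinase, differed by -2.55 (SE 0.68, adjusted p = 0.0676), from 0.23, 0.77, 1.74 and 3.66 to -0.95, -0.26, -1.94 and -0.66. These are isoforms better known from tissues other than liver. *Pkm*, the pyruvate kinase gene of muscle and dividing cells, differed by -1.68 (adjusted p = 0.101). *Pdk1*, which restrains the oxidation of pyruvate in mitochondria, differed by -2.26 (adjusted p = 0.125). It was well above background on 3 of the 4 hCNR1-/- arrays, with hCNR1-/- replicate 4 lowest at -2.93. With the normexp background correction the *Pdk1* difference was -1.12. *Pfkl*, the liver form of phosphofructokinase, *Pgk1* and *Gys1*, a glycogen synthase gene that is not the liver form, completed the 7. Their log2 differences were -1.62, -1.25 and -1.25.

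Several central steps of the pathway passed neither threshold. *Gapdh* differed by 0.26 (SE 0.27, adjusted p = 0.614), *Eno1* by 0.52 (SE 0.24, adjusted p = 0.242), *Aldoa* by -0.29 (SE 0.31, adjusted p = 0.618) and *Ldha*, which makes the lactate that MCT4 exports, by -0.52 (SE 0.36, adjusted p = 0.438). The probes of these genes differed: the other *Gapdh* probes ranged from -0.45 to 0.15, most of them below 0. The other *Ldha* probes were at -0.85 and 0.35. Without scaling *Gapdh* was at -0.29 and *Eno1* at -0.04. Without hCNR1+/+ replicate 4 the group had a median of -0.53 and 5 genes past the study's threshold, and *Gys1* was at -0.77 and *Pfkl* at -1.01. Without hCNR1-/- replicate 4 *Pdk1* was at -1.41 and *Pgk1* at -0.77. For 17 of the 18 genes hCNR1+/+ replicate 4 gave the highest hCNR1+/+ value, against 45.5% of all tested genes.

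Regulators of HIF were divided in direction. Of 14 tested, 0 passed either threshold, 7 were above 0 and 7 below, and the median was 0.06. *Epas1*, which encodes HIF-2α, differed by -0.11 (SE 0.50, adjusted p = 0.921), *Arnt* by 0.32 (SE 0.31, adjusted p = 0.592) and *Vhl* by -0.86 (SE 0.47, adjusted p = 0.322). With the second brightest probe *Epas1* was at 0.60 and *Arnt* at -0.46, and without hCNR1-/- replicate 4 *Epas1* was at 0.42. The hydroxylase genes *Egln1* and *Egln2* differed by -0.30 (SE 0.45) and 0.47 (SE 0.25), with *Egln1* at 0.15 without hCNR1+/+ replicate 4 and *Egln2* at -0.08 without scaling. *Eloc*, part of the VHL complex, had the most positive difference among the 61, 0.92 (SE 0.34, adjusted p = 0.155). Without hCNR1+/+ replicate 4 the number below 0 was 2 of the 14, with a median of 0.20.

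Among the other roles single genes passed the study's threshold, which 3.75% of all tested genes passed on the low side. Of the secreted factors, *Angptl4*, *Igfbp1* and *Adm* differed by 0.40, -0.13 and -0.50, with adjusted p-values of 0.282, 0.828 and 0.695, and without scaling *Angptl4* was at -0.15. Without hCNR1+/+ replicate 4 *Igfbp1* was at 0.07 and *Adm* at 0.07. Of 6 mitochondrial genes 1 passed, *Fam162a* (-1.50, SE 0.46, adjusted p = 0.100), and *Bnip3l*, the paralog of *Bnip3*, differed by -0.79 (SE 0.33, adjusted p = 0.207). Of 7 genes of transcription and chromatin *Ndrg1* and *Insig2* passed (*Insig2* -1.06, SE 0.40, adjusted p = 0.167, and -0.66 without hCNR1-/- replicate 4). *Ero1a* was the 1 of 4 genes of collagen modification and folding, with the limit given above, and 0 of 3 genes of iron, heme and pH passed.

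**Figure D4:**
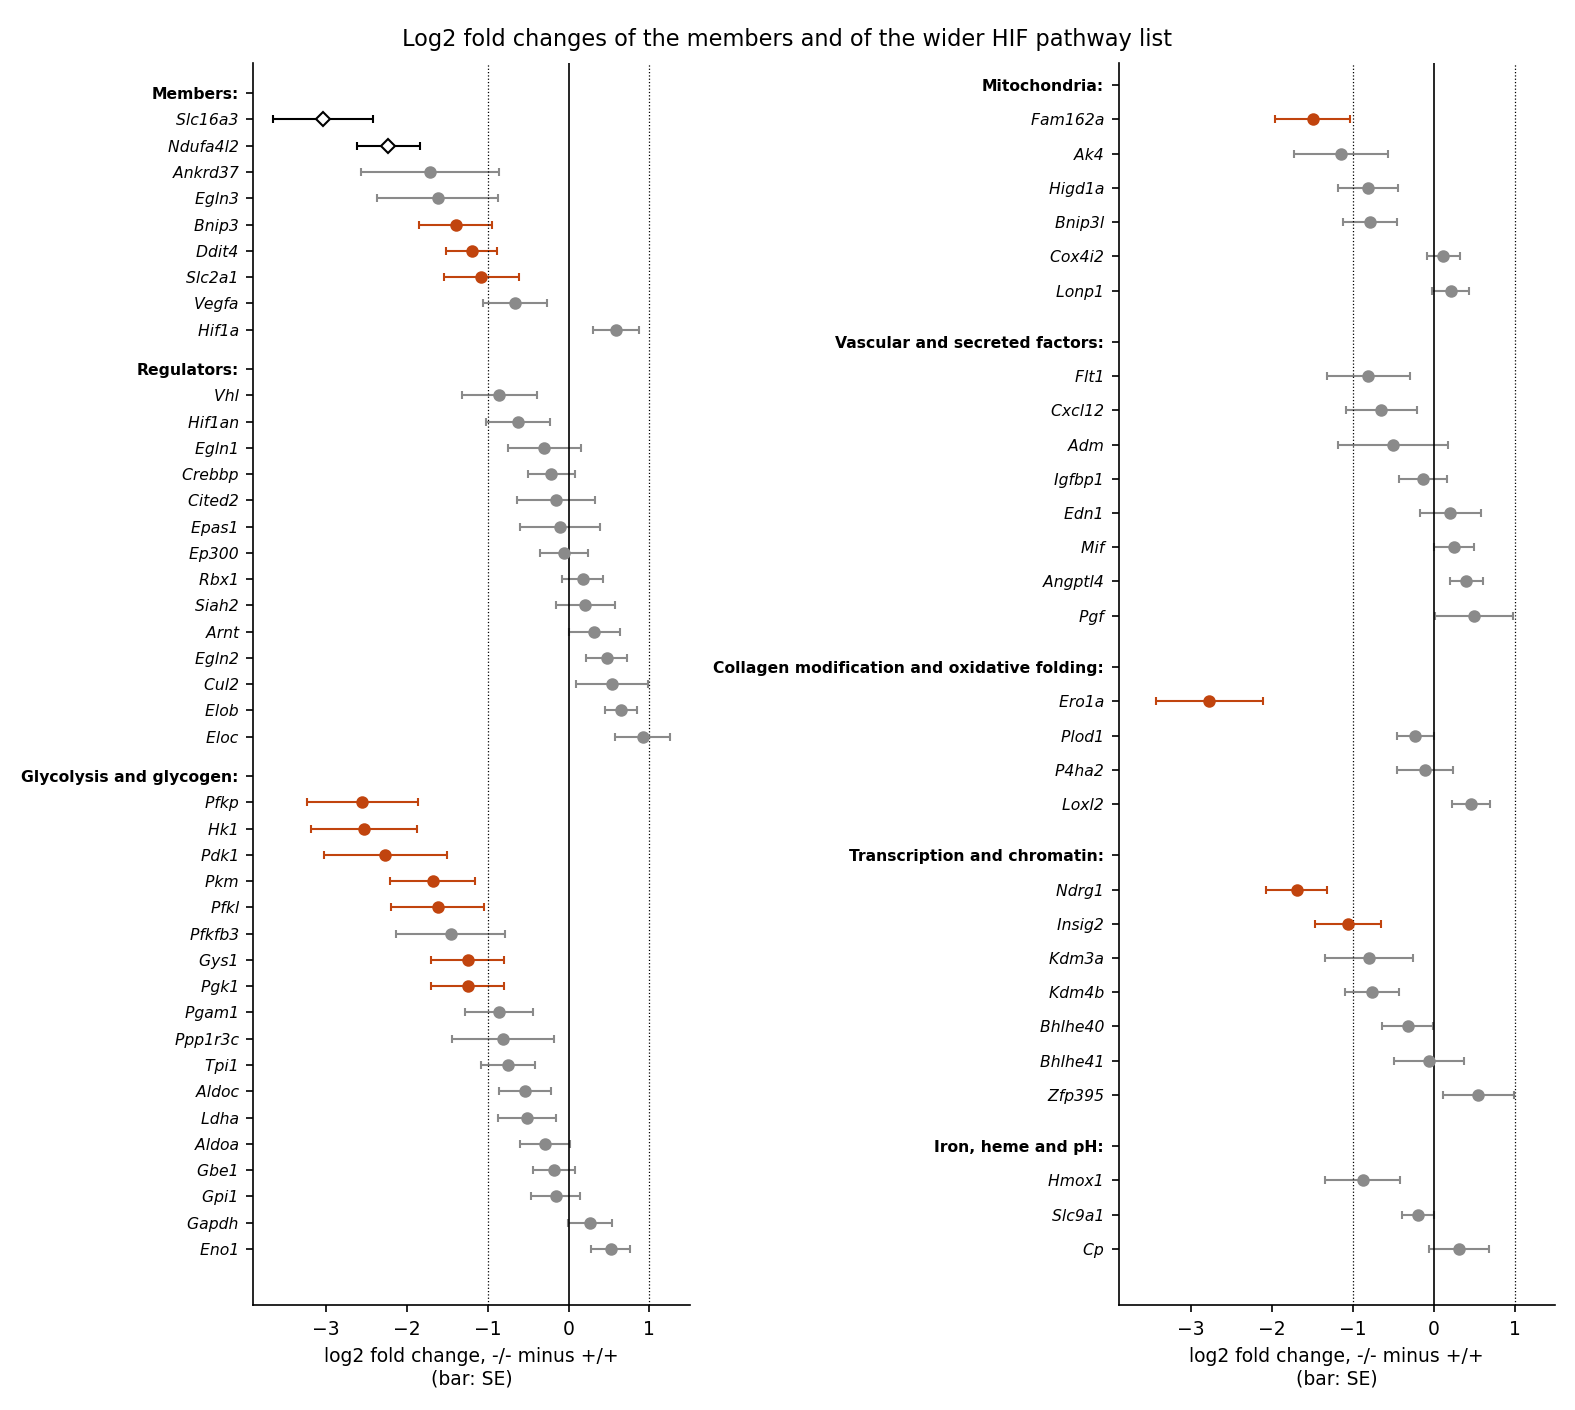
Log2 fold change of hCNR1-/- over hCNR1+/+ with SE for the 9 measurable members and the tested HIF pathway genes by role, without 1 that is not reported here. Filled orange marks a fold change above 2 (dotted lines) with an unadjusted p below 0.05, open diamonds mark Ndufa4l2 and Slc16a3, which were chosen on these values, and 16 of 18 genes of glycolysis and glycogen lie below 0 while the 14 regulators divide into 7 and 7.

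Paralogs and partners of the members were read as well. *Ndufa4*, the paralog of *Ndufa4l2*, differed by -0.05 (SE 0.34, adjusted p = 0.953), and *Slc16a1*, which encodes the lactate transporter MCT1, by 0.65 (SE 0.48, adjusted p = 0.464), or by 0.16 without hCNR1-/- replicate 4. *Bsg*, the chaperone that carries MCT4 to the cell surface, read 4.60, 5.02, 5.25 and 6.06 in hCNR1+/+ and 4.57, 4.40, 3.94 and 4.06 in hCNR1-/-. Its groups were apart, by 0.03 between the nearest arrays, with a log2 difference of -0.99 (SE 0.32, adjusted p = 0.110). Among carbonic anhydrases, the family of *Car9*, *Car2* differed by -1.52 and *Car3* by 1.14 (SE 0.43, adjusted p = 0.167). *Car2* could be measured on 1 of 4 hCNR1-/- arrays and was tested only through the hCNR1+/+ arrays, and with the normexp background correction its difference was -0.36.

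Over the 8 arrays, the pattern of *Slc16a3* was shared most closely by *Tmem74b*, *Pfkp*, *Kif21b*, *H2-Ab1* and *Ndufa4l2*. The measure was the root mean square difference of log2 signals after each gene's own mean was subtracted, and it was 0.29 for *Tmem74b*, 0.32 for *Pfkp*, 0.49 for *Kif21b*, 0.71 for *H2-Ab1* and 0.74 for *Ndufa4l2*, with 8338 genes measurable on every array as candidates. The genes nearest to *Ndufa4l2* were *Chdh* at 0.46, *Ndrg1* at 0.54, *Adm2* at 0.56, *Zfp488* at 0.59 and *H2-Q4* at 0.63. *Pfkp* and *Ndrg1* were thus the HIF pathway genes among these neighbours. *Ndufa4l2* and *Slc16a3* were chosen for their falls on these same 8 arrays, so genes that fell are near them by that choice, and the likeness is a description with no test. The arrays are shared by all genes, including hCNR1+/+ replicate 4.

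**Figure D5:**
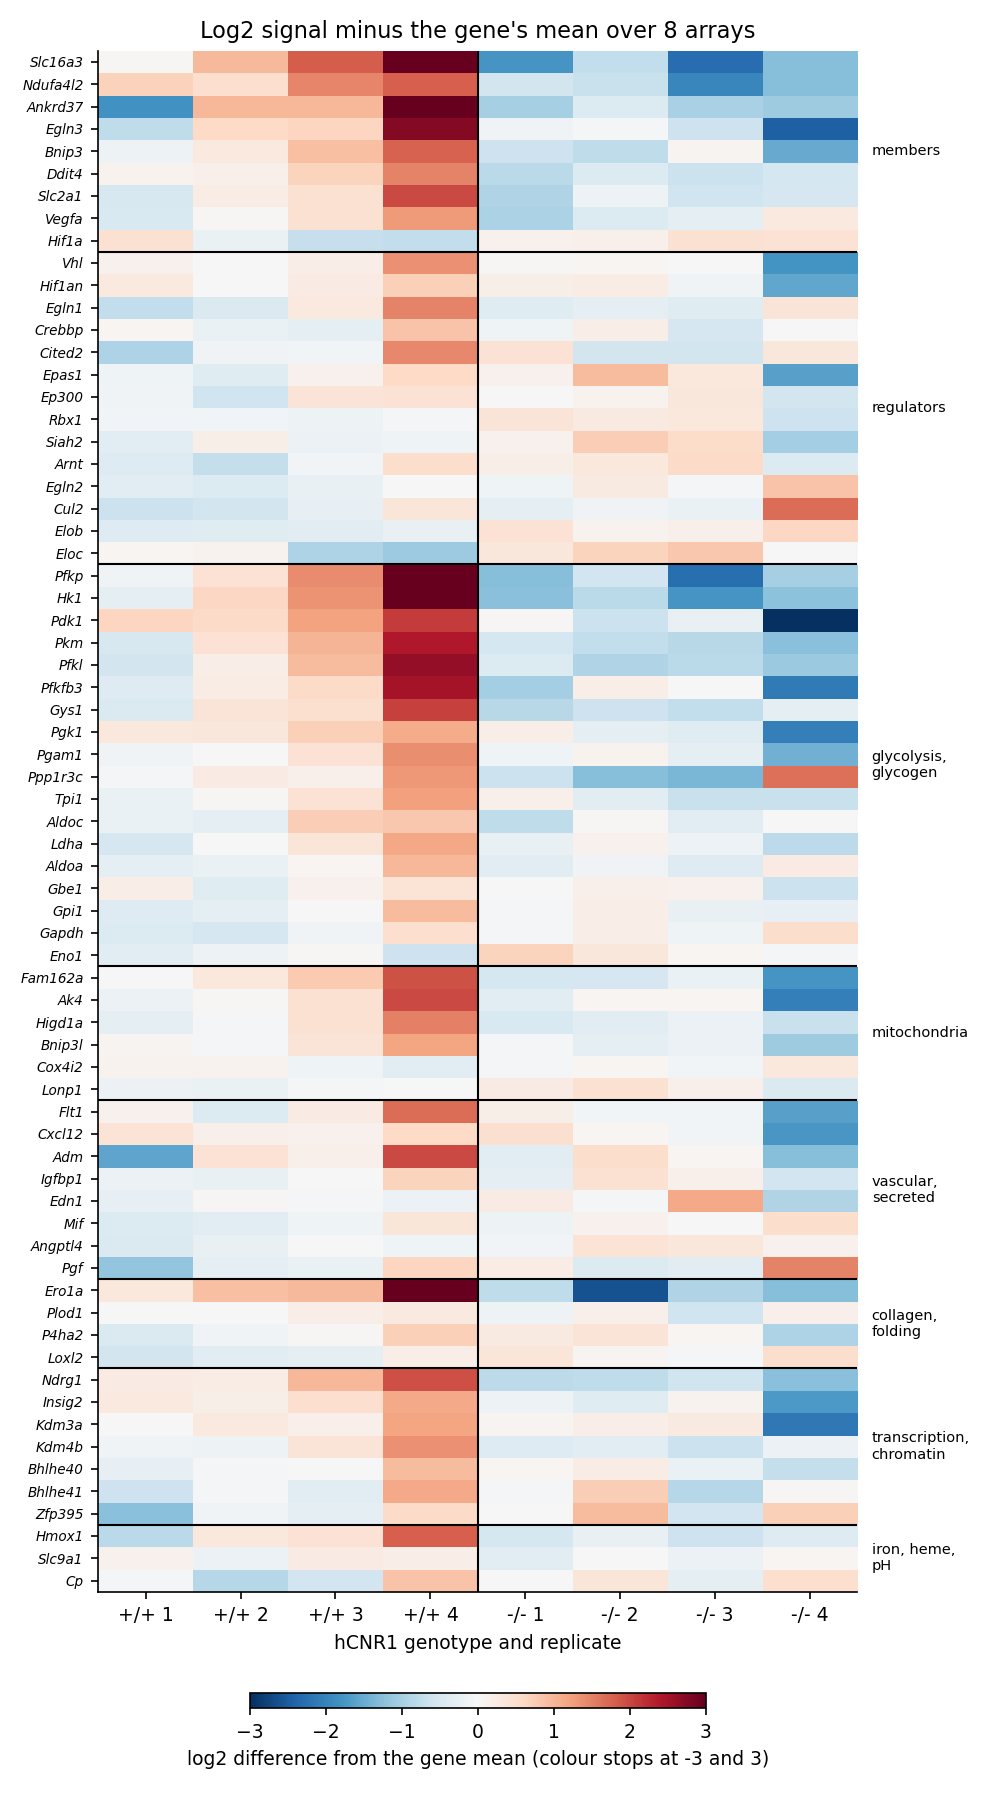
Log2 signal of each array minus the gene's mean over 8 arrays, for the members and the wider HIF pathway list without 1 gene that is not reported here, ordered within each role by log2 fold change (red above, blue below the mean). The hCNR1+/+ replicate 4 column is red for most genes: it holds the highest hCNR1+/+ value for 54 of 61 genes of the wider list, against 45.5% of all tested genes.

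Markers of other cells are given beside the HIF genes, and first those of liver macrophages. Of 14 Kupffer cell markers, 10 were tested and all 10 were below 0, with a median of -0.98. Over all tested genes 43.4% were below 0, with a median of 0.08. The mean log2 signal of the list was 1.39 to 2.59 in hCNR1+/+ and 0.23 to 1.12 in hCNR1-/-. By the study's threshold 5 were lower (*Clec4f*, *Vsig4*, *Marco*, *C1qa* and *Ctss*), against 3.75% of all tested genes. The highest hCNR1+/+ array was replicate 4 for 9 of the 10, against 45.5% of all tested genes. *Marco* and *Ctss* were at -2.41 and -1.89, with adjusted p-values of 0.0336 and 0.0124, and 1.30% of all tested genes were called lower by adjusted p. *Ctss* and *Vsig4* were measurable on 2 of the 4 hCNR1-/- arrays, so their differences rest partly on values not well above background. These genes could be tested only because they were measurable on the hCNR1+/+ arrays, and the counts above include them. The calls of *Marco* and *Ctss* were lost without hCNR1+/+ replicate 3 or hCNR1-/- replicate 3. That of *Marco* was also lost without hCNR1+/+ replicate 2, hCNR1-/- replicate 1 or hCNR1-/- replicate 2. *Cd68* and *Csf1r* differed by -0.83 (adjusted p = 0.0738) and -0.21 (adjusted p = 0.776). The defining marker *Timd4* was well above background on 0 of 8 arrays, as was *Cd163*. The part of macrophage RNA in the differences of the HIF genes was not tested.

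Markers of hepatocytes near the portal vein were mostly lower. Of 11 periportal markers 10 were below 0 with a median of -1.23, against 43.4% of all tested genes below 0. The study's threshold was passed on the low side by 7, against 3.75% of all tested genes. By adjusted p 1.30% of all tested genes were called lower. Here *Etnppl* (-1.83), *Hsd17b13* (-1.59) and *Hal* (-1.23) had adjusted p-values of 0.0159, 0.0269 and 0.0390. *Etnppl* was well above background on 3 of the 4 hCNR1-/- arrays. With the normexp background correction *Etnppl* was at -0.73 and *Hal* at -1.16. None of the 3 passed without hCNR1+/+ replicate 3, hCNR1-/- replicate 1 or hCNR1-/- replicate 3, and over the 8 fits with 1 array left out *Etnppl* passed in 5 and the others in 2 each. *Cyp2f2* and *Ass1* differed by -0.76 (adjusted p = 0.395) and -1.14 (adjusted p = 0.0800). The mean of the list was 4.34 to 5.56 in hCNR1+/+ and 3.24 to 4.13 in hCNR1-/-. Of 8 tested pericentral markers, *Slc1a2* was lower (-1.58, adjusted p = 0.0309), the other 7 passed neither threshold, and the list median was -0.33, or -0.00 without hCNR1+/+ replicate 4. The *Slc1a2* call was lost without any 1 array except hCNR1-/- replicate 4. *Cyp2e1* and *Glul* differed by 0.08 and -0.24. The part of lobule position in the differences of the HIF genes was not tested.

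In the remaining lists few genes passed. The 10 hepatocyte markers averaged 7.89 to 8.32 in hCNR1+/+ and 8.11 to 8.35 in hCNR1-/-, with *Alb* at a log2 difference of -0.23 (SE 0.20, adjusted p = 0.538), and 1 of the 10, *Apob*, was higher (1.63, adjusted p = 0.0477), a call lost without any 1 array except hCNR1-/- replicate 4. Of sinusoidal endothelial markers 0 of 10, of stellate cell markers 0 of 3 and of lymphocyte markers 0 of 3 passed either threshold. Of cholangiocyte markers 0 of 2, of erythroid markers 0 of 2 and of neutrophil markers 0 of 1 passed either. Of immediate-early stress genes it was 0 of 12. The groups were apart on the low side for *Csf3r*, the 1 neutrophil marker tested (-0.80, adjusted p = 0.0722), against 5.04% of all tested genes. The neutrophil markers *S100a9*, *Retnlg*, *Camp*, *Ngp* and *Mmp8* were well above background on 0 of 8 arrays, and *S100a8* on 1. *Csf3r* is therefore not read as a measure of neutrophils. On the high side they were apart for 2 lymphocyte markers, *Cd3e* and *Cd4*, against 12.7% of all tested genes. The nearest hCNR1+/+ and hCNR1-/- arrays read 2.29 and 2.30 for *Cd3e*, and 6.49 and 6.59 for *Cd4*. As list means, lymphocyte markers were 3.57 to 4.01 in hCNR1+/+ and 3.98 to 5.30 in hCNR1-/-, endothelial markers 0.29 to 1.17 and 0.20 to 0.72, and immediate-early genes 3.14 to 4.19 and 2.80 to 3.86. The defining stellate cell markers *Lrat*, *Des*, *Rgs5*, *Pdgfrb* and *Reln* were well above background on 0 of 8 arrays, as were the B cell markers *Cd79a* and *Ms4a1*.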

How the data were processed

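Labelled RNA from hepatocytes of 4 hCNR1+/+ and 4 hCNR1-/- mice was hybridised to 1-colour Agilent arrays, with genotypes as labelled. The deposited intensity values are those of Agilent Feature Extraction, background-corrected within each array and not scaled between arrays, per the file headers. The score values in the table deposited by the authors lay within 0.005 of a within-array z-score of the log intensity and were used as an alternative only. The authors used R Studio, showed z-scores and set a fold change above 2 with a p below 0.05, and their between-array scaling and test are not given in the sources used here.

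Outlier-flagged spots were left out, and spots of 1 probe were averaged. Log2 of the processed intensity was set relative to each array's 75th percentile (59305 non-control spots). Of 55681 probes, 28331 were named through RefSeq accessions (GRCm38.p6) as 21368 genes. A probe was well above background where 50% or more of its spots were flagged so. Genes with such a probe on at least 4 of 8 arrays were tested with their brightest such probe in limma 3.58.1 (R 4.3.3, lmFit and eBayes), with Benjamini-Hochberg adjustment over all 11072 genes. The fit was tested on simulated data. Python 3.11.15, pandas 2.3.3, numpy 2.4.6 and matplotlib 3.10.9 did the rest. The number of arrays, 4 per group, limits the precision.

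The members and all gene lists (HIF pathway, relatives, zonation, cell type markers, immediate-early genes) were chosen with earlier results of these data known. Named were all members, in each role up to 4 genes with the smallest adjusted p among those past the study's threshold, further list genes for their role, in each marker list the 2 genes with the highest mean signal or the smallest p, and the 5 nearest in pattern to *Ndufa4l2* and to *Slc16a3*. Where all genes of a count were named beyond this, they were chosen after their values were seen. Alternatives were quantile, median and no scaling, the deposited scores, normexp (offset 50, on median spot signals), other filters on dim probes, other choices of probe, a variance trend, array weights, the replicate number as a block, and each array left out. Some items are not reported here. A slide or scan block was not run because there was 1 slide and 1 scan.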

Additional observations from a re-analysis of the deposited data

Results flagged for a closer look

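Within groups of 4 arrays, 38 sets of values of the members and marker lists were searched for 1 array distant from the rest by Dixon's ratio (gap to the nearest array over the whole range) at its critical value for 4 values, and 3 were found. Chance alone gives about 1 in 20. *Ankrd37* read -0.70 in hCNR1-/- replicate 2, against -1.35 to -1.27 in the other hCNR1-/- arrays. The mean of the lymphocyte list was 5.30 in hCNR1-/- replicate 4, against 3.98 to 4.18 in the others. The mean of the erythroid list was 2.25 in hCNR1-/- replicate 2, against 1.44 to 1.47 in the others.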

How the results depend on the processing

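In all, 20 settings were tried, 19 planned and 1, the second brightest probe, chosen after seeing the data. The sign of each member's difference was the same under every setting that gave a value. Among HIF pathway genes past the study's threshold *Hk1* changed sign, to 0.063, with its second brightest probe. Smaller differences of the wider lists changed sign under some settings, those of *Epas1*, *Arnt*, *Gapdh*, *Eno1*, *Adm* and *Angptl4* among them. The causes of the changes below were not tested. No scaling moved the median of all genes to -0.47, and the array-to-array signal strength limits what dim probes can show.

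For the 7 members, an adjusted p below 0.05 was reached on the low side by 1 under quantile normalization, 1 with a variance trend and 2 with array weights, against 0. The study's threshold was passed on the low side by 6 without scaling, against 3. Groups were apart on the low side for 3 under quantile normalization, 4 without scaling, 0 with the deposited scores, 2 with the mean of probes and 2 with the second brightest probe, against 1.

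For the HIF pathway list, genes with an adjusted p below 0.05 on the low side, 2 in the main analysis, numbered 1 under quantile normalization, 0 under median scaling, no scaling, the deposited scores, normexp, no filter and the replicate block, 1 with the filter set to all 8 arrays, and 11 with array weights, which also gave 3 on the high side. The study's threshold on the high side was passed by 2 with no filter and 1 with array weights, against 0. Groups were apart on the high side for 0 under quantile, median and no scaling and the deposited scores, and for 2 with no filter, the mean of probes and the second brightest probe, against 1. On the low side they were apart for 18 under quantile normalization, 6 under median scaling and 18 without scaling, against 10.

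Over all genes, calls at an adjusted p below 0.05 were 325 higher and 144 lower. They became 131 and 87 under quantile normalization, 25 and 25 under median scaling, 1 and 29 without scaling, 30 and 51 with the deposited scores, 28 and 13 with normexp, 8 and 14 with no filter, and 2176 and 646 with array weights. With the filter set to all 8 arrays, 54 were lower. By the study's threshold 529 were higher and 415 lower, which became 87 and 630 without scaling, 145 and 107 with normexp, and 324 and 145 with genes well above background on all 8 arrays. Groups were apart for 1410 higher and 558 lower, which became 476 and 279 under median scaling, 61 higher without scaling, 668 higher with the deposited scores, 571 and 312 with normexp, and 274 lower with genes well above background on all 8 arrays.

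Replicate numbers did not pair the arrays: deviations of same-numbered arrays correlated at 0.21, -0.16, -0.05 and 0.02. With the replicate block 0 genes were called at an adjusted p below 0.05 in limma in either direction, 538 were higher and 397 lower by fold and unadjusted p, and 3 of the 7 members passed the latter on the low side.

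With 1 array left out, the 7 members gave 0 to 1 lower and 0 to 0 higher by adjusted p, 1 to 5 lower and 0 to 0 higher by the study's threshold, and 1 to 5 lower and 0 to 1 higher by no overlap. In the HIF pathway list the adjusted p called 0 to 4 lower and 0 to 1 higher. The study's threshold called 9 to 16 lower and 0 to 1 higher there, and the groups were apart for 10 to 16 on the low and 1 to 5 on the high side. Of all genes the adjusted p called 25 to 323 lower and 13 to 1121 higher. The study's threshold called 329 to 478 lower and 464 to 616 higher, and the groups were apart for 630 to 830 on the low and 1501 to 2694 on the high side.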
